A study of Mus musculus with 27 samples.

Results

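The T cell receptor complex and its proximal signaling genes were followed in P14 CD8 T cells as 10 named genes of the 35275 genes in the tables: Cd247, Cd3d, Cd3e, Cd3g, Cd8a, Cd8b1, Lck, Zap70, Lat and Cd5. They were taken by symbol from the tables, and each symbol stood for 1 gene ID. The genes were selected with earlier results on these libraries known, and Cd247 was singled out with its day 5 level in lin28Tg CTLs known. Day 5 values of lin28Tg CTLs against the other genotypes are therefore given as a description with no test, while naive cells, 12 h activated cells and the let-7Tg CTLs of day 5 were tested. RNA of 27 libraries was sequenced, from 3 genotypes at 3 stages with 3 libraries per group. WT cells were P14+, lin28Tg cells were Lin28bTg P14+ and carried a Lin28 transgene whose product blocks the maturation of let-7 microRNAs, and let-7Tg cells were Let-7Tg P14+ with a let-7g transgene that doxycycline induces. By the study's methods the transgenic mice were on a Rag2-/- background, so that the transgenic P14 receptor, which is specific for the gp33 peptide of LCMV, was the receptor their T cells could make. The promoter that drives the Lin28 transgene is not given in the sources used here. Control mice were also fed doxycycline, unless stated otherwise. The mice were young adults, and the labels give no age or sex per library, nor whether a library came from 1 animal or from pooled animals. Naive cells were taken without culture. The study's culture methods name both lymph nodes and spleens as sources of lymphocytes. Activated cells had been held for 12 h with anti-CD3 antibody at 2 μg/ml, anti-CD28 antibody at 5 μg/ml and doxycycline at 2 μg/ml. CTLs had first met anti-CD3 antibody at 2 μg/ml on irradiated splenocytes, received IL-2 at 100 U/ml after 48 h, were kept in doxycycline at 2 μg/ml and were taken on day 5.

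The T cell receptor binds peptide on MHC molecules with its alpha and beta chains, which have no signaling parts of their own. Signals are passed on by the CD3 chains gamma, delta and epsilon (Cd3g, Cd3d, Cd3e) and by the zeta chain (Cd247), whose cytoplasmic tails carry the tyrosine motifs called ITAMs. The CD8 coreceptor (Cd8a, Cd8b1) binds MHC class I and brings the kinase Lck to the complex, Lck phosphorylates the ITAMs, the kinase Zap70 docks on them, and Zap70 phosphorylates the adaptor Lat, which gathers the next enzymes. Cd5 is a surface receptor that dampens this signal, and its level is known to follow the strength of receptor signaling. The zeta chain is limiting for the assembly and surface export of the complex, and NK cells use it too.

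The mature let-7g sequence is shown because it is the microRNA that the let-7Tg mice overexpress and that Lin28 holds back. It is from RefSeq (GRCm38.p6, chr9:106178846-106178867, plus strand), and capitals mark the seed, bases 2 to 8.
let-7g-5p: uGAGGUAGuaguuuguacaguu
The DNA letters that pair with this seed, CTACCTC, were looked for in 1 3′ UTR per gene, that of its longest coding transcript (GENCODE M21), and were found in 0 of the 10 genes, and in 1833 of 20551 genes with such a UTR (8.9%). The shorter match to bases 2 to 7, TACCTC, was found once each in Cd3e, Lck and Cd5. The absence of a match says only that these letters are not in the transcripts searched.

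Cd247 spans chr1:165788681-165877277 on the plus strand (GRCm38, GENCODE M21), far from the genes of the other CD3 chains. Those lie side by side within 40.1 kb of chromosome 9, Cd3g at chr9:44969572-44980431 on the minus strand, Cd3d at chr9:44981786-44987339 on the plus strand and Cd3e at chr9:44998740-45009627 on the minus strand, and the starts of Cd3d and Cd3g are 1355 bases apart. The 250 bases before the RefSeq start of each of the 4 genes, which for Cd3e lies inside the GENCODE gene given above, are printed because Cd247 and the CD3 chains moved apart between genotypes in these data. They are from RefSeq (GRCm38.p6) and read 5′ to 3′ on the strand of the gene.
Cd247, chr1:165788431-165788680, plus strand: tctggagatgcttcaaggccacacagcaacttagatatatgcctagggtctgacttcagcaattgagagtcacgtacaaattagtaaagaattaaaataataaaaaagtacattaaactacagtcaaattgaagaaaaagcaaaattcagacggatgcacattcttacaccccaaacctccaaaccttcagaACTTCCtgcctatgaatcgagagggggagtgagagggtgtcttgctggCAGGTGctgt
Cd3d, chr9:44981536-44981785, plus strand: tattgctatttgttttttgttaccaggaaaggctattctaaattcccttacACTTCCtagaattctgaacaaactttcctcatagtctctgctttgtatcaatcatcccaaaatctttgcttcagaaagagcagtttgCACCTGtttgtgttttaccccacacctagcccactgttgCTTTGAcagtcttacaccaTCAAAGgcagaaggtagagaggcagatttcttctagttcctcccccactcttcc
Cd3e, chr9:45009612-45009861, minus strand: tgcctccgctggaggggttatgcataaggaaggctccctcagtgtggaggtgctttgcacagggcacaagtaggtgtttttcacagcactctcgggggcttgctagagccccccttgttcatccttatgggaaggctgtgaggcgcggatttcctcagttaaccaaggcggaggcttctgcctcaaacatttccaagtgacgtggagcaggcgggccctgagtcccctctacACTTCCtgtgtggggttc
Cd3g, chr9:44980432-44980681, minus strand: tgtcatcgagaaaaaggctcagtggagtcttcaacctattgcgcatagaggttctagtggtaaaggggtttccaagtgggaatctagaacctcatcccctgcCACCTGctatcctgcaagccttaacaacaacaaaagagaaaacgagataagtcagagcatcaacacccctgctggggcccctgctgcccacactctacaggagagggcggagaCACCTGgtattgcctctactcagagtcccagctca
Capitals mark matches, on either strand, to 4 letter patterns that were searched. They are GGAAGT for ETS factors, TGTGGT for RUNX factors, CAGNTG for E-boxes and CTTTGA for TCF and LEF factors. The marked matches do not overlap one another. GGAAGT was found once each before Cd247, Cd3d and Cd3e and in 19.8% of 32536 promoters of the same length. CAGNTG was found once before Cd247 and Cd3d and 2 times before Cd3g, and in 44.8% of the promoters. CTTTGA was found 2 times before Cd3d and in 13.9% of the promoters, and TGTGGT before none of the 4 genes and in 14.0%. A match describes the letters and is not a bound site.

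Levels are FPKM, fragments scaled by gene length and library depth. A comparison between genes depends on the gene lengths behind the deposited values, which were not checked against the transcripts. Ranges and overlaps are of FPKM before the scaling between libraries that the tests used. Libraries held 13862706 to 23591069 counted reads, and the 10 genes were covered by between 197 reads (Cd5, lin28Tg CTLs, replicate 2) and 33230 reads (Cd8a, lin28Tg naive cells, replicate 2). The transgenes followed the labels. Lin28b was at 63.5, 10.9 and 19.4 FPKM in lin28Tg cells at the 3 stages and at most 0.059 FPKM in any library of the other genotypes. Col1a1, the locus that carries the let-7g transgene, was at 18.7, 40.7 and 13.3 FPKM in let-7Tg cells and between 0.0327 and 4.93 FPKM in the other libraries. All libraries had high levels of Cd8a, Cd8b1 and the CD3 chains. Naive lin28Tg libraries stood apart by markers of other cells. All 10 myeloid markers were above WT without overlap, with sums of 228, 1080 and 556 FPKM in replicates 1 to 3 against 40 to 70.6 FPKM in WT. Erythroid markers summed to between 343 and 1360 FPKM against 104 to 199 FPKM in WT, and 3 of 5 were above WT without overlap. Of 7 NK markers, 4 were above WT, with sums of 88.1 to 250 against 36.3 to 84.2 FPKM, and of 5 gamma delta T cell markers 3 were, with sums of 27.9 to 34.1 against 7.42 to 15.2 FPKM. Of 4 markers of CD4 T cells 2 were above and 2 below WT, with Cd4 itself at 34.0 ± 23.4 against 5.45 FPKM. Erythroid markers were lower in naive let-7Tg cells, at 1.45 to 32.8 FPKM. At 12 h myeloid sums were 8.18 to 17 FPKM in lin28Tg against 4.34 to 8.77 FPKM in WT, and erythroid sums 57.4 to 497 against 18.8 to 77 FPKM. The 5 T cell markers Thy1, Bcl11b, Runx3, Ccl5 and Gzmb summed to 1430 to 1540 FPKM in naive lin28Tg against 1310 to 1370 FPKM in WT. Of these 5, Ccl5 was above WT without overlap (303 against 80.7 FPKM) and Bcl11b below it (62.7 against 89.4 FPKM). The share of all genes that lay above WT without overlap was not computed, and 34.9% of all genes tested were called in naive lin28Tg against WT. Counts of markers without overlap, here and below, are thus descriptions and show no enrichment by themselves. The part of other cells in the results was not tested. In such bulk samples fewer cells of a type and less RNA per cell cannot be told apart. Replicates of a group varied beyond counting error, and the study calls them biological replicates of a single sequencing experiment. The labels do not say whether they were separate animals or cultures, so p-values measure the spread between these libraries. Members of the list share the libraries and are not replicates of a condition.

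Counts of the 10 genes past the test (limma on log2 of scaled FPKM + 0.5, Benjamini-Hochberg adjusted p under 0.05 over all genes tested) differed by comparison, and all 10 passed the filter on low values at each stage. In naive cells 1 gene rose and 4 fell in lin28Tg against WT, a comparison in which 34.9% of all genes tested were called, and 1 rose and 4 fell against let-7Tg, where 44.2% were called. The median log2 fold change of the 10 genes in naive lin28Tg cells against WT was -0.28, beside -0.04 over all genes. In let-7Tg naive cells against WT 0 of the 10 were called by limma and 0 by voom on recovered reads, where 0.934% of all genes were called, and 1, Cd8b1, had an unadjusted p under 0.05. Without lin28Tg replicate 2, the library with most myeloid RNA, 4 of the 10 were called in naive lin28Tg against WT, beside 3015 of all genes in place of 4628. At 12 h 1 gene rose and 2 fell in lin28Tg against WT (8.49% of all genes called), 1 rose in let-7Tg against WT (3.24% called), and 1 rose and 4 fell in lin28Tg against let-7Tg (30.8% called). Without WT replicate 1 or 3 or lin28Tg replicate 2 or 3 of 12 h, 1 of the 10, Cd247, stayed called in lin28Tg against WT, and without lin28Tg replicate 1 there were 5. Calls over all genes fell too, from 1039 to 508 and 612 without WT replicate 1 and 3, and to 363 and 462 without lin28Tg replicate 2 and 3. With the replicate number as a block, which pairs WT and let-7Tg libraries of 12 h and of day 5, the let-7Tg comparison of 12 h called 240 genes in place of 396 and still 1 of the 10, and that of day 5 called 528 in place of 121 and 0 of the 10. The median over the 10 genes in lin28Tg against WT at 12 h was -0.26, beside -0.01 over all genes. In let-7Tg against WT CTLs of day 5 limma called 0 of the 10 and voom 0, where 0.929% of all genes were called, and 2, Lck and Cd5, had an unadjusted p under 0.05. The study's own cluster lists of 12 h, which were chosen on these libraries, hold Cd247 and Zap70, so the 12 h counts are not independent evidence for these genes. In these comparisons WT libraries serve both transgenic genotypes.

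**Figure D1:**
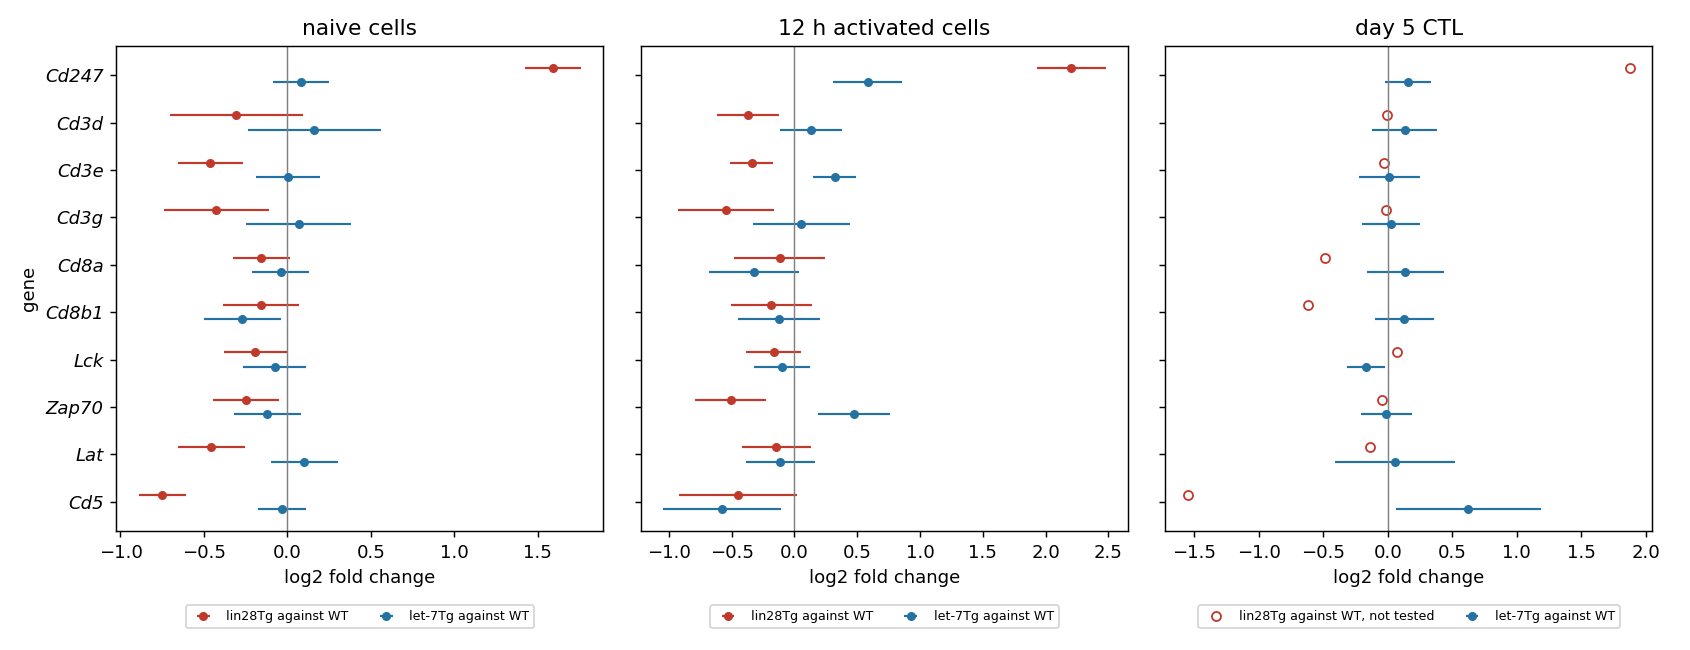
Log2 fold change against WT (horizontal axis, a separate scale per panel) of the 10 genes in lin28Tg (red) and let-7Tg (blue) cells at each stage, with bars for the 95% interval of limma over 3 libraries per group; open points were not tested and have no interval. Cd247 in lin28Tg lies far to the right of the other 9 genes at each stage, at 1.59, 2.20 and 1.88.

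Cd247, the zeta chain, was the gene of the list that rose in lin28Tg cells. In naive cells it was at 138, 146 and 143 FPKM in the WT libraries, 488, 419 and 441 FPKM in the lin28Tg libraries and 156, 162 and 151 FPKM in the let-7Tg libraries. All naive lin28Tg libraries were far above both other genotypes, and the let-7Tg libraries lay just above WT as FPKM before scaling. The log2 fold change against WT was 1.59 in lin28Tg (SE 0.076, adjusted p = 6.65e-06), that is 3.01-fold, and 1.51 against let-7Tg (adjusted p = 3.8e-06). Cd247 was singled out with earlier results on these libraries known. Its p-values, here and below, are therefore not independent evidence for the gene. Cd247 in let-7Tg differed from WT by 0.08, with a 95% interval of -0.09 to 0.25 and an adjusted p of 0.686. At 12 h Cd247 was at 34.1, 28.1 and 23.6 FPKM in WT, 146, 134 and 123 FPKM in lin28Tg and 41.3, 49.9 and 40 FPKM in let-7Tg. The 3 groups did not overlap, and WT was the lowest. Cd247 rose by 2.20 in lin28Tg against WT (SE 0.123, adjusted p = 4.42e-05, 4.61-fold) and by 1.62 against let-7Tg (adjusted p = 4.1e-05). It also rose in let-7Tg against WT, by 0.59 (SE 0.123, adjusted p = 0.0424). Both transgenic genotypes, of which by design 1 has less and 1 more let-7, were thus above WT at 12 h. The let-7Tg call was lost without WT replicate 2 (adjusted p = 0.0834) or 3 (0.136) and without let-7Tg replicate 2 (0.0945) or 3 (0.0801). On day 5 Cd247 was at 84.4, 80.1 and 80.5 FPKM in WT CTLs, 310, 261 and 305 FPKM in lin28Tg CTLs and 101, 93.5 and 89.8 FPKM in let-7Tg CTLs. The day 5 level in lin28Tg was 1.88 above WT on the log2 scale (3.68-fold) and 1.72 above let-7Tg, which chose the gene and was not tested. Between let-7Tg and WT CTLs the change was 0.16, with a 95% interval of -0.02 to 0.34.

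The 9 groups could be put in order by Cd247, from lin28Tg naive cells at 449 ± 35.0 FPKM (SD, n = 3), through lin28Tg CTLs at 292 ± 27, let-7Tg naive cells at 156 ± 5.85, WT naive cells at 142 ± 3.98, lin28Tg cells at 12 h at 134 ± 11.3, let-7Tg CTLs at 94.9 ± 5.87, WT CTLs at 81.7 ± 2.35 and let-7Tg cells at 12 h at 43.7 ± 5.41, to WT cells at 12 h at 28.6 ± 5.30. Of neighbours in this order only WT naive cells and lin28Tg cells at 12 h overlapped, as FPKM before the scaling that the tests used. The sum of NK markers, whose cells also use Cd247, was higher in lin28Tg than in WT at all stages. At 12 h it was 14.9 to 33.5 FPKM in lin28Tg against 8.14 to 9.40 FPKM in WT, with 3 of 7 markers above WT without overlap. On day 5 it was 4410 to 6110 FPKM against 88.9 to 793 FPKM. The day 5 sum was mostly Gzma, a granzyme that CTLs also make, at 4910 FPKM, and 3 of 7 NK markers were above WT without overlap. They were Gzma, Klrb1c and Klrb1b. Klrb1c, which encodes the NK receptor NK1.1, was at 104 ± 49.4 FPKM in lin28Tg CTLs (SD, n = 3), against 22.1 ± 16.7 FPKM for WT and 3.00 ± 1.34 FPKM for let-7Tg, and Klrb1b was at most 0.372 FPKM. The other 4 markers, Ncr1, Klra4, Klra8 and Klrb1a, were at 0 or at most 0.0796 FPKM in the CTLs of WT and lin28Tg. The part of NK cells in the Cd247 result was not tested. Gamma delta T cell markers summed to 4.87 to 6.31 FPKM in lin28Tg against 2.29 to 3.42 FPKM in WT at 12 h. On day 5 these sums were 7.01 to 14.2 FPKM in lin28Tg against 14 to 46.7 FPKM in WT. Myeloid markers summed to at most 3.56 FPKM in any library of day 5.

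**Figure D2:**
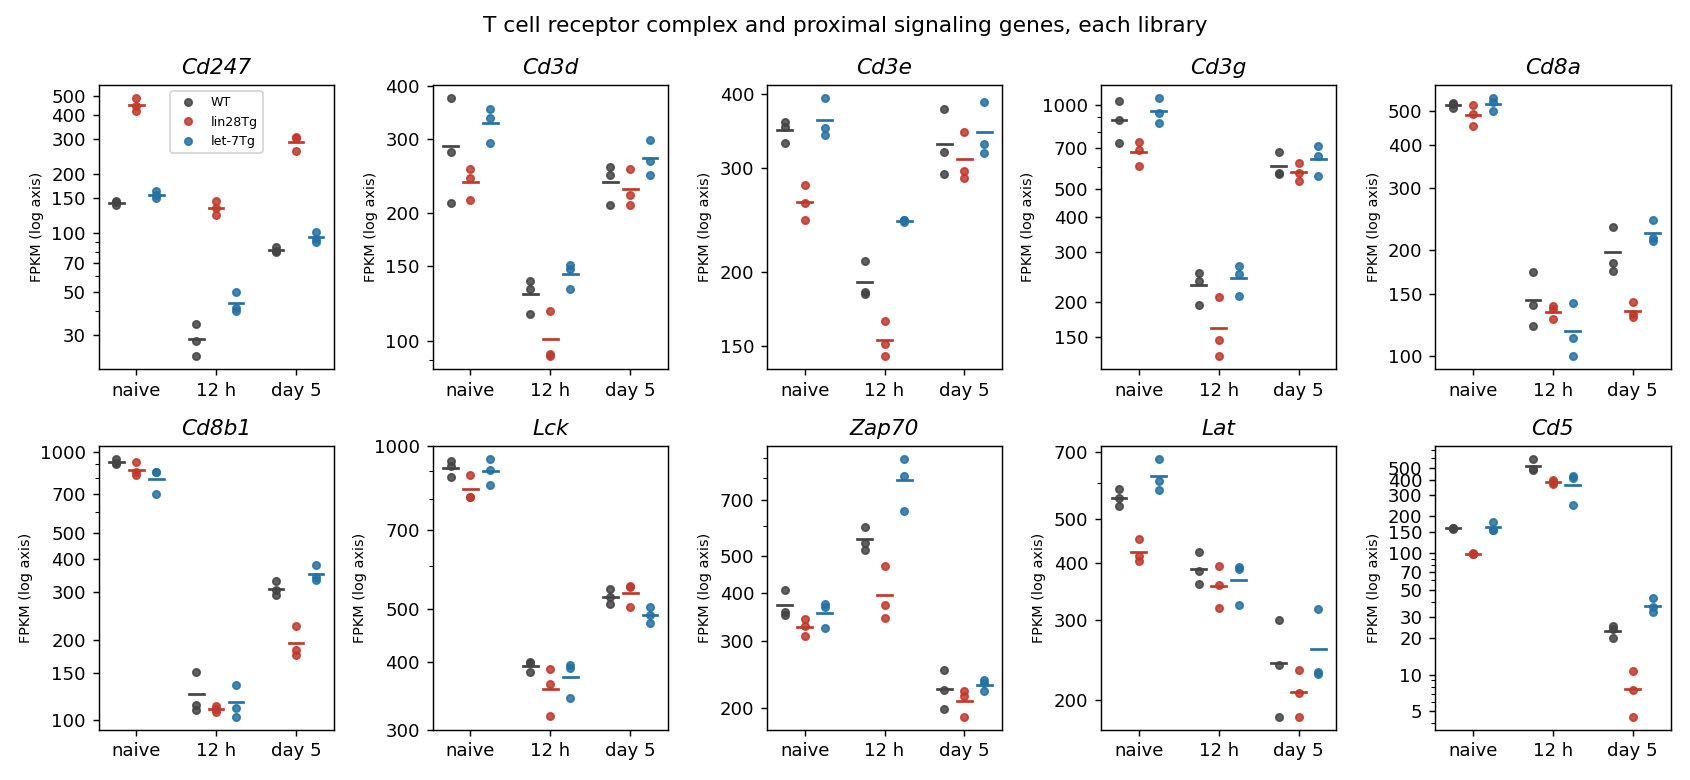
FPKM of each of the 10 genes (vertical axis, log scale with its own range per gene) by stage, with 1 point per library and a bar at the group mean, in WT (grey), lin28Tg (red) and let-7Tg (blue). Cd247 is separated by genotype at each stage, while Cd3d, Cd3e, Cd3g, Lck and Zap70 lie close together on day 5 and Cd5 falls to between 4.52 and 42.7 FPKM there.

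Cd3d, Cd3e and Cd3g, the chains that pair with each other around the receptor, did not follow Cd247. Naive Cd3e was at 330, 359 and 351 FPKM in WT, 281, 245 and 262 FPKM in lin28Tg and 341, 394 and 350 FPKM in let-7Tg. The lin28Tg libraries were the lowest without overlap, and Cd3e fell by 0.46 against WT (SE 0.087, adjusted p = 0.00394) and by 0.47 against let-7Tg (adjusted p = 0.00236). Naive Cd3g was at 732, 1027 and 879 FPKM in WT, 692, 604 and 739 FPKM in lin28Tg and 862, 1056 and 936 FPKM in let-7Tg. The lin28Tg range overlapped that of WT, and Cd3g fell by 0.43 against WT (SE 0.139, adjusted p = 0.0397). This call was lost without WT replicate 2 (adjusted p = 0.145) or 3 (0.103) and without lin28Tg replicate 1 (0.0649), 2 (0.142) or 3 (0.0642). Against let-7Tg Cd3g fell by 0.49 (adjusted p = 0.0174), a call lost without lin28Tg replicate 2 (0.0663) or let-7Tg replicate 2 (0.0569). Naive Cd3d was at 212, 374 and 280 FPKM in WT and 243, 215 and 254 FPKM in lin28Tg, ranges that overlapped, and its change of -0.31 was not called (adjusted p = 0.211), except without WT replicate 1 (0.0203). Without replicate 2 of naive lin28Tg cells the log2 fold changes against WT were 1.65 for Cd247 (adjusted p = 8.44e-05), -0.40 for Cd3e (0.0159) and -0.34 for Cd3g (0.142).

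At 12 h Cd3e was at 185, 183 and 208 FPKM in WT, 165, 151 and 144 FPKM in lin28Tg and 245, 243 and 245 FPKM in let-7Tg. The 3 groups did not overlap, with lin28Tg below and let-7Tg above WT. Cd3e fell by 0.34 in lin28Tg against WT (SE 0.077, adjusted p = 0.0257) and by 0.66 against let-7Tg (adjusted p = 0.000353), while in let-7Tg against WT its change of 0.32 had an adjusted p of 0.0542, and of 0.0299 with no scaling between libraries. The call against WT was lost without WT replicate 1 (adjusted p = 0.0676) or 3 (0.0862) and without lin28Tg replicate 2 (0.109) or 3 (0.112). Cd3d was at 133, 116 and 138 FPKM in WT, 118, 92.2 and 93.1 FPKM in lin28Tg and 133, 148 and 151 FPKM in let-7Tg. It was lower in lin28Tg than in every let-7Tg library and fell by 0.50 against let-7Tg (adjusted p = 0.00836), while its -0.37 against WT had an adjusted p of 0.0692. Cd3g was at 238, 195 and 254 FPKM in WT, 208, 146 and 128 FPKM in lin28Tg and 209, 268 and 250 FPKM in let-7Tg. It fell by 0.60 in lin28Tg against let-7Tg (adjusted p = 0.0251), a call lost without replicate 2 or 3 of lin28Tg (0.0889 and 0.0928) or of let-7Tg (0.0589 and 0.0783), and its -0.55 against WT had an adjusted p of 0.0816. Without lin28Tg replicate 1, Cd3d and Cd3g both passed the test against WT (adjusted p = 0.0302 and 0.0177), and Cd3d also without WT replicate 2 (0.0476).

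On day 5 the ranges of the 3 genotypes overlapped for each CD3 chain. Whether the lin28Tg differences changed from 12 h to day 5 was not tested. Cd3e was at 377, 318 and 293 FPKM in WT, 345, 289 and 297 FPKM in lin28Tg and 387, 330 and 318 FPKM in let-7Tg CTLs. Cd3d was at 258, 209 and 246 FPKM in WT and 254, 209 and 221 FPKM in lin28Tg CTLs, and Cd3g at 676, 568 and 570 against 623, 571 and 535 FPKM. All 3 ranges overlapped, and the log2 differences of lin28Tg from WT were -0.03 for Cd3e, -0.004 for Cd3d and -0.01 for Cd3g. In let-7Tg against WT CTLs they were 0.01, 0.13 and 0.03, with 95% intervals of -0.22 to 0.25, -0.12 to 0.38 and -0.20 to 0.25.

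The ratio of Cd247 to the CD3 chains put these differences on 1 scale. In each library the FPKM of Cd247 was divided by the geometric mean of Cd3d, Cd3e and Cd3g, which does not depend on the scaling between libraries. In naive cells the ratio was 0.372, 0.282 and 0.324 in WT, 1.35, 1.32 and 1.2 in lin28Tg and 0.353, 0.313 and 0.310 in let-7Tg. At 12 h it was 0.190, 0.175 and 0.121 in WT, 0.913, 1.06 and 1.03 in lin28Tg and 0.218, 0.235 and 0.191 in let-7Tg. On day 5 it was 0.209, 0.239 and 0.233 in WT, 0.816, 0.801 and 0.932 in lin28Tg and 0.233, 0.249 and 0.249 in let-7Tg. By FPKM, zeta chain RNA was thus below the mean of the CD3 chains in WT and let-7Tg cells at each stage and near it in lin28Tg cells. The level of 1 gene beside another depends on the gene lengths used, but the comparison of this ratio between genotypes does not. The ratio in lin28Tg was 3.98 times that in WT in naive cells, 6.26 times at 12 h and 3.74 times on day 5, and the smallest lin28Tg value of any stage, 0.801, was above the largest of the other genotypes, 0.372. In let-7Tg it was 1.00, 1.34 and 1.07 times that in WT. These ratios are given with no test, since their genes were chosen with the results known, and they concern RNA and not protein.

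**Figure D3:**
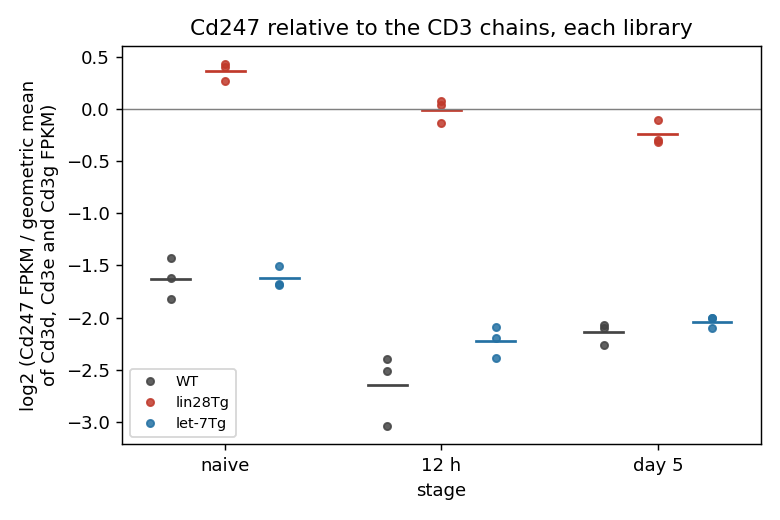
Log2 of Cd247 FPKM over the geometric mean FPKM of Cd3d, Cd3e and Cd3g (vertical axis) by stage, with 1 point per library and a bar at the group mean, in WT (grey), lin28Tg (red) and let-7Tg (blue). The lin28Tg means are 0.37, -0.01 and -0.24, and the WT means -1.63, -2.65 and -2.14.

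Cd8a and Cd8b1, the chains of the coreceptor, were furthest apart between genotypes on day 5. Naive Cd8a was at 525, 523 and 509 FPKM in WT, 518, 452 and 488 FPKM in lin28Tg and 529, 544 and 500 FPKM in let-7Tg, with overlapping ranges. Naive Cd8b1 was at 907, 946 and 905 FPKM in WT, 921, 840 and 819 FPKM in lin28Tg and 846, 844 and 695 FPKM in let-7Tg. Its change in let-7Tg against WT was -0.27, without overlap, and was not called (adjusted p = 0.264). At 12 h Cd8a was between 99.8 and 173 FPKM and Cd8b1 between 103 and 151 FPKM over the 9 libraries, with overlapping genotypes. On day 5 Cd8a was at 174, 184 and 233 FPKM in WT, 129, 142 and 132 FPKM in lin28Tg and 216, 212 and 244 FPKM in let-7Tg CTLs. Cd8b1 was at 305, 294 and 331 FPKM in WT, 225, 176 and 184 FPKM in lin28Tg and 379, 334 and 343 FPKM in let-7Tg CTLs. The lin28Tg CTLs were the lowest for both chains without overlap, by -0.49 for Cd8a and -0.62 for Cd8b1 against WT and by -0.62 and -0.75 against let-7Tg on the log2 scale, as a description. In let-7Tg against WT CTLs the changes were 0.14 and 0.13, with 95% intervals of -0.16 to 0.44 and -0.10 to 0.36.

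Among the kinases and the adaptor, Lck varied least. In naive cells it was at 878, 918 and 940 FPKM in WT, 884, 805 and 806 FPKM in lin28Tg and 846, 902 and 948 FPKM in let-7Tg. At 12 h Lck was between 318 and 399 FPKM and on day 5 between 472 and 553 FPKM, and it was called in 0 of the 7 genotype comparisons tested with limma. Its lowest unadjusted p was 0.0314, in let-7Tg against WT CTLs (-0.17, 95% interval -0.31 to -0.02). Zap70, the kinase that docks on the phosphorylated chains, differed most at 12 h, when it was at 519, 596 and 542 FPKM in WT, 472, 372 and 345 FPKM in lin28Tg and 658, 899 and 808 FPKM in let-7Tg. The 3 groups did not overlap, with lin28Tg lowest and let-7Tg highest, the order that Cd3e also had at 12 h. Zap70 fell by 0.51 in lin28Tg against WT (SE 0.127, adjusted p = 0.038) and by 0.98 against let-7Tg (adjusted p = 0.000607). In let-7Tg against WT its change of 0.48 had an adjusted p of 0.07, and 0.0379 without let-7Tg replicate 1. The call in lin28Tg against WT was lost without WT replicate 1 (adjusted p = 0.0877), 2 (0.11) or 3 (0.0956) and without lin28Tg replicate 2 (0.153) or 3 (0.149). In naive cells Zap70 was at 352, 357 and 407 FPKM in WT against 342, 309 and 328 FPKM in lin28Tg (-0.25, adjusted p = 0.056), and on day 5 at 252, 223 and 199 against 216, 190 and 222 FPKM.

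Lat, the adaptor downstream of Zap70, was at 534, 555 and 580 FPKM in naive WT cells, 451, 404 and 414 FPKM in lin28Tg and 579, 678 and 606 FPKM in let-7Tg. The naive lin28Tg libraries were below both other genotypes without overlap, and Lat fell by 0.46 against WT (SE 0.09, adjusted p = 0.00471) and by 0.56 against let-7Tg (adjusted p = 0.00117). At 12 h Lat was at 384, 359 and 422 FPKM in WT and 394, 358 and 318 FPKM in lin28Tg, and on day 5 at 239, 184 and 299 against 184, 207 and 232 FPKM. The genotypes overlapped at both stages.

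Cd5, the inhibitory receptor, was lower in lin28Tg than in WT libraries at each stage. In naive cells it was at 157, 160 and 161 FPKM in WT, 97.7, 97.8 and 101 FPKM in lin28Tg and 154, 154 and 179 FPKM in let-7Tg. The lin28Tg libraries were close together and far below the others, and Cd5 fell by 0.75 against WT (SE 0.064, adjusted p = 7.23e-05) and by 0.72 against let-7Tg (adjusted p = 5.31e-05). At 12 h it was at 487, 478 and 598 FPKM in WT, 399, 387 and 368 FPKM in lin28Tg and 430, 249 and 416 FPKM in let-7Tg. Both transgenic genotypes lay below WT without overlap, by -0.45 in lin28Tg (adjusted p = 0.226) and -0.57 in let-7Tg (adjusted p = 0.154), and neither was called. Against let-7Tg, the lin28Tg cells of 12 h differed by 0.13 with overlapping ranges (adjusted p = 0.678). On day 5 Cd5 was at 25.1, 19.9 and 23.7 FPKM in WT, 10.8, 4.52 and 7.49 FPKM in lin28Tg and 35.9, 42.7 and 32.5 FPKM in let-7Tg CTLs. The 3 groups did not overlap, with let-7Tg above and lin28Tg below WT. The lin28Tg CTLs differed from WT by -1.55 and from let-7Tg by -2.18 on the log2 scale, as a description. The change of 0.63 in let-7Tg against WT was not called (95% interval 0.06 to 1.19, adjusted p = 0.329).

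Each of the 10 genes changed in at least 1 step of activation, in 1 model of the 27 libraries. In WT cells 2 genes rose and 7 fell from naive to 12 h, where 71% of all genes tested were called, and 6 rose and 3 fell from 12 h to day 5, where 67.5% were called. In WT cells at 12 h Cd8b1 fell by 2.64 (adjusted p = 6.14e-14), Cd247 by 2.06 (3.29e-14), Cd3g by 1.69 (1.47e-09), Cd8a by 1.60 (9.09e-10), Lck by 0.96 (1.56e-09), Cd3d by 0.88 (1.9e-05) and Cd3e by 0.60 (8.32e-06). Cd5 rose by 1.95 (adjusted p = 3.21e-08) and Zap70 by 0.82 (3.42e-07). Receptor and coreceptor chains thus fell together at 12 h, and the inhibitory receptor and the kinase Zap70 rose. From 12 h to day 5 in WT cells Cd247 rose by 1.36, Cd3g by 1.25, Cd8b1 by 1.16, Cd3d by 0.72, Cd3e by 0.62 and Lck by 0.27 (adjusted p = 4.42e-11, 2.16e-07, 4.77e-08, 0.000198, 7.16e-06 and 0.0104). Cd5 fell by 4.63 (adjusted p = 3.17e-14), Zap70 by 1.46 (6.11e-11) and Lat by 0.87 (5.58e-05). Cd8a was not called in this step (0.29, adjusted p = 0.0717), but it was without WT replicate 1 of 12 h (0.44, adjusted p = 0.013) or WT replicate 1 of day 5 (0.38, 0.0368), with no scaling between libraries (0.45, 0.00232) and with median of ratios scaling (0.34, 0.0337). CD3 chain and zeta chain RNA thus returned toward their naive levels on day 5, Cd3e to 293 to 377 FPKM against 330 to 359 FPKM in naive WT cells, while Cd5 did not. Lat was lower at 12 h than in naive WT cells in each library as FPKM, but its scaled change of -0.27 was not called (adjusted p = 0.14). Without scaling between libraries it fell by 0.52 (adjusted p = 0.00245), and the median of all genes then shifted to -0.18 from -0.03. Stage and day of preparation cannot be told apart.

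In lin28Tg cells 2 genes rose and 7 fell from naive to 12 h (73.5% of all genes called), and in let-7Tg cells 2 rose and 8 fell (69.3% called), followed by 7 that rose and 3 that fell to day 5 (67.1% called). Cd247 fell by 1.60 in let-7Tg cells and by 1.5 in lin28Tg cells at 12 h (adjusted p = 1.83e-12 and 7.16e-12), beside 2.06 in WT. Cd5 rose by 2.20 in lin28Tg and 1.36 in let-7Tg (5.19e-09 and 6.58e-06), and Zap70 by 0.51 and 1.37 (0.000167 and 1.03e-10). In let-7Tg cells Lat fell by 0.53 at 12 h (adjusted p = 0.006), a call lost without let-7Tg replicate 2 of 12 h (0.0517). Lck rose there by 0.25 from 12 h to day 5 (adjusted p = 0.017), a call lost without let-7Tg replicate 2 of 12 h (0.17) or replicate 3 of day 5 (0.0669). Whether a genotype's difference from WT itself changed with the stage was tested as an interaction. Of the 10 genes 1, Cd247, was called for the lin28Tg difference of 12 h against naive (8.05% of all genes called), by 0.56 (SE 0.137, adjusted p = 0.0141), so that the rise of Cd247 in lin28Tg was larger at 12 h. The call was lost without lin28Tg replicate 2 of naive cells (0.53, adjusted p = 0.051). For the let-7Tg difference of day 5 against 12 h 1 gene, Cd5, was called (1.49% of all genes called), by 1.25 (SE 0.303, adjusted p = 0.0403). Cd5 lost this call without WT replicate 1 or 3 of 12 h (adjusted p = 0.0662 and 0.122), let-7Tg replicate 2 of 12 h (0.0906), or replicate 1 or 2 of day 5 in WT (0.0654 and 0.117) or in let-7Tg (0.0787 and 0.105). Cd247 passed this test without WT replicate 1 of 12 h (-0.52, adjusted p = 0.0376). Of the 10 genes, limma called 0 and voom 0 for the let-7Tg difference of 12 h against naive (0.0761% of all genes called) and of day 5 against naive (0.346% called), and 2 had an unadjusted p under 0.05 in limma in each, Cd247 and Zap70 in the first and Cd5 and Cd8b1 in the second.

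A list of 49 other genes of proximal signaling, all of which could be tested, gave the wider setting. In naive lin28Tg cells against WT 2 of the 49 rose and 22 fell, where 34.9% of all genes were called, with a median log2 fold change of -0.21 beside -0.04 over all genes, and against let-7Tg 6 rose and 24 fell, where 44.2% were called. Without lin28Tg replicate 2 of naive cells, 3 rose and 17 fell against WT, and 5 rose and 17 fell against let-7Tg. Over all genes, 3015 in place of 4628 were then called against WT. Against let-7Tg, 4555 to 5386 in place of 5871 were called with 1 library left out. Trac, the constant region of the receptor alpha chain, fell by 1.09 (SE 0.115, adjusted p = 0.000242), with 1592 ± 166 FPKM in WT and 777 ± 14.8 FPKM in lin28Tg (SD, n = 3). Cd6, a surface receptor related to Cd5, fell by 0.77 (adjusted p = 3.89e-05), from 287 ± 5.29 to 176 ± 8.02 FPKM, and by 0.69 against let-7Tg (4.27e-05). Rhoh, a GTPase that helps recruit Zap70, fell by 0.52 (adjusted p = 0.000437), from 40.4 ± 0.693 to 29.3 ± 1.33 FPKM, and by 0.67 against let-7Tg (6.1e-05). Cd28, the costimulatory receptor, fell by 0.97 in lin28Tg against let-7Tg (adjusted p = 0.000167). The 2 genes that rose against WT were Ptprj, a receptor phosphatase, by 2.00 (adjusted p = 0.00234) and Fcer1g, by 2.18 (adjusted p = 0.00622). Both also rose against let-7Tg, by 1.93 and 2.79 (adjusted p = 0.00163 and 0.00127), as did the adaptor Lax1, by 0.39 (adjusted p = 0.0089). Ptprj was at 2.16 ± 0.75 FPKM in naive WT and 10.9 ± 4.81 FPKM in naive lin28Tg cells, and the part of other cells in this was not tested. Fcer1g encodes the ITAM chain of Fc receptors, which is the relative of the zeta chain and is abundant in myeloid and NK cells. It was at 23.4 ± 8.86 FPKM in naive WT and 125 ± 81.1 FPKM in naive lin28Tg cells, where myeloid markers were raised too, and the part of such cells was not tested. In CTLs Fcer1g was at 5.35 ± 2.75 FPKM in WT, 64.5 ± 40.1 FPKM in lin28Tg and 1.43 ± 0.0930 FPKM in let-7Tg. Myeloid sums there were at most 3.56 FPKM. The NK marker Klrb1c was in the same order as Fcer1g over the 3 genotypes, highest in lin28Tg and lowest in let-7Tg. Of the 7 NK markers only 2, Klrb1c and Gzma, were above a mean of 1 FPKM in lin28Tg CTLs, and the others were lower or absent. The part of NK cells in the Fcer1g level was not tested.

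At 12 h 1 of the 49 rose and 10 fell in lin28Tg against WT, where 8.49% of all genes were called, with a median of -0.15 beside -0.01 over all genes, and 4 rose and 14 fell against let-7Tg, where 30.8% were called. The 11 called against WT became 5, 7 and 8 without WT replicate 1, 2 and 3, and 3 and 4 without lin28Tg replicate 2 and 3, respectively, while Ptprj rose in each case. Calls over all genes fell as well, from 1039 to 508 and 612 without WT replicate 1 and 3, and to 363 and 462 without lin28Tg replicate 2 and 3. Ptprj rose by 1.30 (adjusted p = 0.00389). Ptprc, the phosphatase CD45 that activates Lck, fell by 0.59 (adjusted p = 0.00499), from 488 ± 23.8 to 328 ± 9.15 FPKM. Cd2, an adhesion receptor, fell by 0.97 (adjusted p = 0.00557), from 76.6 ± 18.0 to 38.9 ± 3.30 FPKM, and Trbc1, a constant region of the receptor beta chain, fell by 0.62 (adjusted p = 0.00996, but 0.0597 without lin28Tg replicate 2). Against let-7Tg, Cd2 fell by 1.45 (adjusted p = 0.000222), Ptpn22, a phosphatase of Lck and Zap70, by 1.07 (0.000685) and Plcg1, the phospholipase that Lat recruits, by 0.51 (0.000607). Ptprj rose by 1.47 (0.000651), Themis, an adaptor of the same pathway, by 0.85 (0.015, but 0.0591 without lin28Tg replicate 3) and Ubash3a, a phosphatase that restrains the receptor, by 0.73 (0.0115). Ubash3a was also the gene of the list called in let-7Tg against WT at 12 h, where it fell by 0.76 (adjusted p = 0.0468). Without WT replicate 1, 2 or 3, or let-7Tg replicate 2 or 3, this adjusted p was 0.139, 0.0771, 0.156, 0.0651 and 0.101. Ptpn22 is in the study's 12 h cluster lists. In let-7Tg against WT limma called 0 of the 49 in naive cells, where 10 had an unadjusted p under 0.05, and 0 in CTLs, where 12 did, and voom also called 0 in both. With the replicate block 1 rose and 3 fell in let-7Tg CTLs, and without WT replicate 3 of day 5 there were 2 that rose and 2 that fell. In these settings 528 and 314 of all genes were called, in place of 121.

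Most genes of the wider list were called in each step of activation, as were most of all genes. In WT cells 12 of the 49 rose and 29 fell at 12 h, where 71% of all genes were called, with a median log2 fold change of -0.46 beside -0.03 over all genes, and 23 rose and 15 fell from 12 h to day 5 (67.5% of all genes called). In lin28Tg cells 13 rose and 33 fell at 12 h (73.5% called). In let-7Tg cells 12 rose and 32 fell at 12 h (69.3% called), and 24 rose and 15 fell to day 5 (67.1% called).

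Across the 27 libraries, after the mean of each stage was subtracted, the 5 genes of 14453 whose scaled log2 levels were most like Cd247 were Lin28b (Pearson's r of 0.95), Il1rl1 (0.91), Gm15910 (0.91), 5830411N06Rik (0.90) and Lgals3 (0.88). Of these, Gm15910 was at group means of 0 to 0.728 FPKM and Il1rl1 at 0.107 to 3.44 FPKM. Such levels are near the 0.5 FPKM added before the logarithm. The same correlation with Cd247 was -0.55 for Cd3d, -0.64 for Cd3e, -0.61 for Cd3g, -0.69 for Cd5 and -0.19 for Lck. Without subtraction of the stage means Jup (0.89), Mxd1 (0.89), Cdkn2b (0.88), Fgr (0.88) and Bcl3 (0.86) were closest. Cd3g was then at 0.46 and Zap70, which rose when Cd247 fell, at -0.61. These are descriptions, as the libraries fall into groups by genotype and stage and share their depth and composition.

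The genes around Cd247 differed less than Cd247 did. The window of 1 Mb to either side of its start was chosen after its values were seen. In lin28Tg against WT 4 of 11 genes tested in the window were called in naive cells, where 34.9% of all genes were, Creg1 (0.94, adjusted p = 0.00417), Pogk (0.65), Sft2d2 (-0.21) and Dcaf6 (-0.29), and the 11 ranged from -0.48 to 1.17. At 12 h 2 of 11 were called, where 8.49% of all genes were, Mpzl1 (0.81) and Dcaf6 (-0.42), and the range was -0.42 to 0.81, below the 2.20 of Cd247. Pou2f1 overlaps Cd247 on the opposite strand by 12124 bases and was at 0 to 0.466 FPKM, and Gm16565 overlaps it by 687 bases on the same strand at 0.0812 to 1.85 FPKM. On the opposite strand to Zap70, Gm18828 shares 1012 bases at 1.11 to 13.2 FPKM. Gm23402, Gm32999, Gm37856 and Gm37469 also overlap Cd247 on the opposite strand and had no value here. The counting is not stated to use strand, so reads in such overlaps cannot be assigned with certainty. Their part in the levels of Cd247 and Zap70 was not tested.

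**Figure D4:**
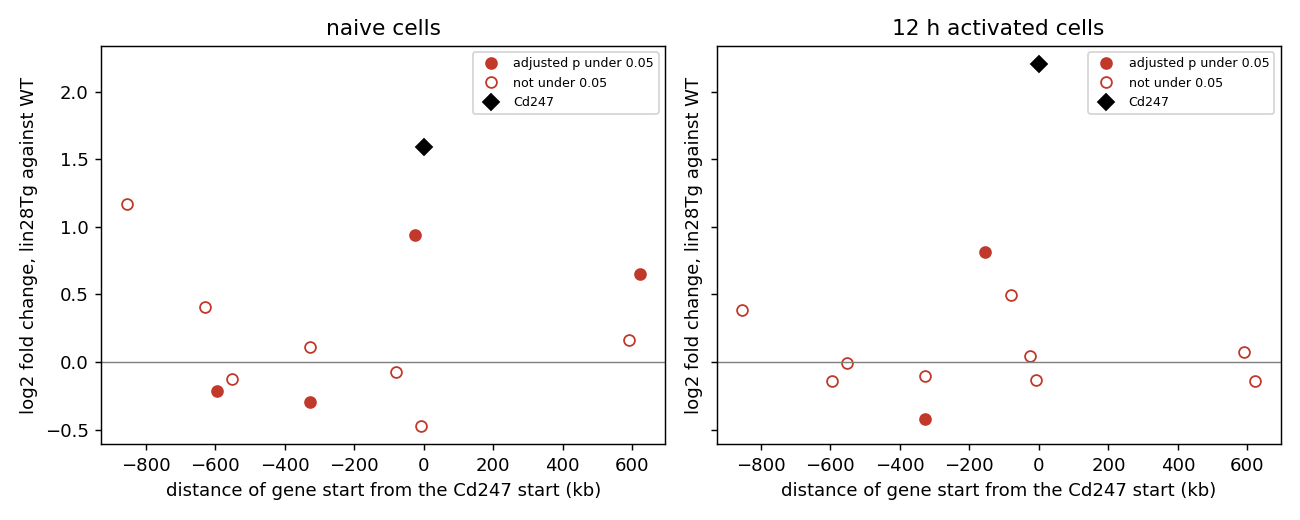
Log2 fold change in lin28Tg against WT (vertical axis) of the genes tested within 1 Mb of the start of Cd247, by the distance of their start in kb (horizontal axis), in naive and 12 h activated cells; filled points passed the test and the diamond is Cd247. Cd247 is above all its neighbours at both stages, at 1.59 and 2.20.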

How the data were processed

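RNA sequencing of 27 libraries of P14 CD8 T cells was deposited as 3 tables, 1 per stage, each with 35275 genes. Per the study's methods and the submitters' processing notes, the authors aligned paired reads with TopHat2 2.0.9 on Bowtie2 2.0.6 (GRCm38/mm10) and counted them per gene with HTSeq 0.6.1, and the deposited values are FPKM. The annotation release, and whether counting used strand, are not given in the sources used here. The tables also hold the authors' heatmap cluster, group means of read counts, log2 fold changes and p-values from DESeq2, which were not used. Read totals could be recovered from the FPKM, since 99.9989% of values above 0 (462834 of 462839) were whole reads within 0.02 reads. The totals were 13862706 to 23591069 reads.

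FPKM were brought to a common scale by the trimmed mean of the libraries' log ratios (30% of log ratios and 5% of levels trimmed), and log2(scaled FPKM + 0.5) was tested with limma 3.58.1 (trend, two-sided) in R 4.3.3. Fold changes are on this scale, which understates changes of low genes. Genotypes were compared over the 9 libraries of a stage, and stages and interactions over all 27. Genes needed 10 reads at median depth in 3 libraries, and 15 reads in all. Benjamini-Hochberg adjustment ran over all genes tested, with a threshold of 0.05. Intervals are 95% intervals of limma. The recovery and the test were tested on simulated data. The 10 genes, the 49 pathway genes and the marker lists were chosen with earlier results of these data known. The result of 1 marker list is not reported here. All 10 genes are named, and of the pathway list up to 3 called genes in each direction with the smallest adjusted p per genotype comparison.

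Replicate numbers come from the labels. Deviations from group means of same-numbered libraries correlated in each pair of genotypes on day 5 (0.245 to 0.715) and for WT and let-7Tg at 12 h (0.24 to 0.549), where the numbers were taken to pair the libraries. Replicates of a group differed beyond sampling noise (mean chi-square per gene 4.4 to 58.1), so none was merged. Alternatives were other scalings, pseudocounts of 0.1 and 1 FPKM, no filter, voom on recovered reads, 6 libraries alone, the replicate block, and each library left out. Gene positions are from GENCODE M21, which holds 34490 of the 35275 gene IDs.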

Additional observations from a re-analysis of the deposited data

Results flagged for a closer look

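The difference between lin28Tg and WT in Cd247 was larger at 12 h than in naive cells by 0.562 on the log2 scale (limma interaction, SE 0.137, adjusted p = 0.0141). The group differences behind it were 1.592 in naive cells and 2.204 at 12 h within each stage, with all lin28Tg libraries above all WT libraries at both stages. Without lin28Tg replicate 2 of naive cells, the library with most myeloid RNA, it was 0.526 (adjusted p = 0.051). As Cd247 was singled out with earlier results on these libraries known, these p-values are not independent evidence for the gene.

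The difference between let-7Tg and WT in Cd5 changed from 12 h to day 5 by 1.247 on the log2 scale (limma interaction, SE 0.303, adjusted p = 0.0403). All let-7Tg libraries were below all WT libraries at 12 h (249 to 430 against 478 to 598 FPKM) and above them on day 5 (32.5 to 42.7 against 19.9 to 25.1 FPKM), and neither difference was itself called. Without let-7Tg replicate 2 of 12 h, the lowest Cd5 library of that stage, it was 0.937 (adjusted p = 0.0906). The call was also lost without WT replicate 1 or 3 of 12 h, WT replicate 1 or 2 of day 5, or let-7Tg replicate 1 or 2 of day 5, where adjusted p lay between 0.0654 and 0.122.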

How the results depend on the processing

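Of the 160 tests of the 10 genes, 68 were called, 58 of these stayed called with the same sign in all alternatives that were run, 10 were lost in at least 1, and no called value changed sign. A further 10 were called only in an alternative, and 82 were called in none, of which 34 changed sign in at least 1. The 3 members called in lin28Tg against WT at 12 h became 1 with no filter on low values and 1 to 5 with 1 library left out. The 1 called in let-7Tg against WT at 12 h became 2 with no scaling, 0 with no filter, 0 with the 6 libraries alone and 0 to 2 with 1 library left out. The single calls of Cd247 and Cd5 in the interactions became 0 to 1 with 1 library left out, and that of Cd5 0 with no filter. Settings other than single libraries that ended a call were no scaling (Cd3g naive lin28Tg against WT, adjusted p = 0.0605, and Zap70 at 12 h, 0.0564), no filter (Cd3g 0.0836 in naive cells and 0.0617 at 12 h against let-7Tg, Cd3e 0.0536 and Zap70 0.0771 at 12 h, Cd247 in let-7Tg 0.0912, Cd5 interaction 0.0789) and the 6 libraries alone (Cd3g 0.054, Cd247 in let-7Tg 0.101). The 6 libraries alone added Cd5 at 12 h in lin28Tg against WT (0.0249) and Cd3d in naive lin28Tg against let-7Tg (0.0104). The causes were not tested.

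With the replicate block, members called were 5, 0 and 5 in the naive comparisons, 2, 1 and 5 at 12 h and 0 on day 5, and 9, 9, 9, 10 and 10 in the steps between stages. In the interactions they were 1, 0, 1 and 0. The block ended 1 call of the 10 genes, Zap70 in lin28Tg against WT at 12 h (-0.51, adjusted p = 0.0595), where the numbers did not pair the libraries (correlations down to -0.257). In naive cells the numbers were not taken to pair the libraries either. The correlations there were 0.475, 0.216 and 0.061 for WT and let-7Tg, and between -0.257 and 0.105 for pairs with lin28Tg.

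Counts over all genes moved more. Naive lin28Tg against WT called 4628 genes and 3008 to 4133 with 1 library left out, and naive let-7Tg against WT 124, 14 to 61 with 1 library left out, 43 with no filter, 71 with the block and 51 with voom. At 12 h the counts were 1039 (363 to 792) for lin28Tg against WT, 396 (5 to 697) for let-7Tg against WT, with 38 for the 6 libraries alone, 79 with no filter and 240 with the block, and 3775 (2265 to 3502) for lin28Tg against let-7Tg. On day 5 the let-7Tg count was 121 (2 to 314), with 1 for the 6 libraries alone, 528 with the block, 48 with voom, 54 with no filter and 73 at a pseudocount of 0.1 FPKM. The interaction counts were 1163 (531 to 1406; 177 with voom and 709 at a pseudocount of 0.1), 11 (3 to 41; 0 with voom), 216 (69 to 469; 87 with voom and 113 with no filter) and 50 (30 to 224; 13 with voom, and 21 and 79 at the lower and higher pseudocount). With no scaling the share of called genes that were higher moved from 54.6% to 66.4% in naive lin28Tg against WT, from 32.3% to 51% in naive let-7Tg against WT and from 62% to 72.4% in let-7Tg CTLs. The median of all genes at 12 h against naive then moved from -0.03 to -0.18 in WT, from -0.06 to -0.24 in lin28Tg and from -0.04 to -0.18 in let-7Tg. The day 5 difference of Cd247 in lin28Tg against WT, 1.88 with no test, was 1.83 to 1.89 in the other settings and 1.84 to 1.95 with 1 library left out. The log2 ratio of Cd247 to the CD3 chains in lin28Tg minus WT lay between 1.89 and 2.09 in naive cells, 2.45 and 2.77 at 12 h and 1.84 and 1.95 on day 5 with 1 library left out.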
